A study of Homo sapiens with 18 samples.

Results

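Interferon-stimulated genes are described here in SMARCAL1-deficient and SMARCAL1-proficient breast cancer cells. The set was 59 listed gene symbols of antiviral effectors, their regulators and related factors. They were taken by name, with earlier results of these data known. All 59 were present in both count tables, among 57120 symbols in the TruSeq table and 44267 entries in the PLATE-seq table. Of the 59, 51 passed the filter on low counts in the TruSeq data and 28 in the PLATE-seq data, and the rest were not tested there.

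Type I and type III interferons bind their receptors on the cell surface and activate JAK kinases, which phosphorylate STAT proteins, STAT2 among them. Phosphorylated STAT2 joins IRF9 in a transcription factor complex, ISGF3, that binds a GAAA-rich element in the promoters of interferon-stimulated genes. The proteins made from these genes sense or degrade viral RNA, block entry and release of virus particles and modify host proteins, and many are made at a low level in tumour cells with no added interferon. SMARCAL1 is a DNA translocase that remodels stalled replication forks, and the series title places it in innate immune signalling.

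MDA-MB-436 is an established human triple-negative breast cancer line. In the TruSeq assay, a total RNA protocol that keeps strand, 3 libraries of SMARCAL1 knockout clone 1 were set against 3 libraries of a control. PLATE-seq is a pooled assay of messenger RNA from cells lysed in plates. Its groups had 2 libraries each: SMARCAL1 knockout clones 1, 2 and 3 with a control, and cells given siRNA against SMARCAL1 with an siRNA control. Each knockout group came from 1 clone, so that a difference between a clone and the control cannot be told apart from a difference between cell clones. No drug or interferon treatment is named in the labels for any group. The labels call the replicates biological, and the PLATE-seq samples have tags for the cell line that number upward, the lowest being MDA-MB-437 and the highest MDA-MB-448, although their titles name MDA-MB-436.

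The promoter stretches that follow show the element by which these genes are known, for ISG15 and 4 of the members described below as changed. Each line gives the 150 bases before the RefSeq gene start (GRCh38.p14), read 5′ to 3′ on the strand of the gene. Capitals mark matches to GAAANNGAA on either strand, with overlapping matches run together. PNPT1 is shown as a changed member with no match to this pattern. Its stretch does hold gaaacgaaac, with a shorter gap than the pattern allows, so no match does not show that the element is absent. RefSeq and GENCODE place some starts differently, so that the PARP14 and ISG15 stretches lie within the GENCODE bounds of their genes, and the other 4 partly within them.
BST2, chr19:17405631-17405780, minus strand: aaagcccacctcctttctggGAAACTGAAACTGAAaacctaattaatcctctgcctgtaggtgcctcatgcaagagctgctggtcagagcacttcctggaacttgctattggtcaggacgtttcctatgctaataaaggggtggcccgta
SAMD9, chr7:93117980-93118129, minus strand: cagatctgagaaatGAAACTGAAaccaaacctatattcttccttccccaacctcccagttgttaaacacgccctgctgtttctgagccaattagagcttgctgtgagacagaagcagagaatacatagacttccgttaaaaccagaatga
OAS3, chr12:112938324-112938473, plus strand: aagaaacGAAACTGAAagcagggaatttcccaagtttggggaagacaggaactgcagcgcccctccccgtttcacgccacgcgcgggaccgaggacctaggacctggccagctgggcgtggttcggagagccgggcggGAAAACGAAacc
PARP14, chr3:122680689-122680838, plus strand: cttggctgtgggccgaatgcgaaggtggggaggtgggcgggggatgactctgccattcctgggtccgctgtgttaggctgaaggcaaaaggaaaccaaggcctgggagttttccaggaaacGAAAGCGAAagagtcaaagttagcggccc
ISG15, chr1:1013347-1013496, plus strand: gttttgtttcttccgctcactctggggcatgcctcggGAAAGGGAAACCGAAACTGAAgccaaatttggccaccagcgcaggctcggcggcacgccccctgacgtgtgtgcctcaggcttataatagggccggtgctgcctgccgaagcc
PNPT1, chr2:55693845-55693994, minus strand: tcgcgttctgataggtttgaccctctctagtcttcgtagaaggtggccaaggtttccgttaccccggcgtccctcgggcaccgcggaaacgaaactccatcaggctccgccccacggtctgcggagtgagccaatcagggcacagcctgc
A promoter window was at hand in the RefSeq table for 49 of the 59 members, running from 250 bases before the start to 50 after it. The motif was found on either strand in 34 of these 49 windows (69.4%), against 2264 of all 27305 windows of the table (8.29%). With the search held to the strand of the gene it was found in 49.0% of the members' windows and 4.15% of all windows. PSME1, another changed member, held a match within its window but none in the 150 bases before its start. A match describes the letters of a window and does not show that a factor bound there.

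TruSeq libraries held 10257584 to 19270648 counts and PLATE-seq libraries 807861 to 3068887, so that 3 counts, the limit that a count of 0 allows, stood for at most 0.292 CPM (counts scaled to a common library size) in TruSeq and 3.71 CPM in PLATE-seq. Such limits cover counting error only. Of 6 markers listed for this line, 5 passed the filter in TruSeq and 5 in PLATE-seq. VIM, CD44, KRT8 and KRT18 were among the 6 and were counted in every library, and KRT7 and KRT19 were the others listed. ESR1 and PGR were at or below 0.969 CPM in TruSeq. ERBB2 lay between 37.3 and 53.5 CPM in TruSeq, and the leukocyte marker PTPRC was at or below 2.69 CPM. Of markers listed for other cell types, 4 of 8 for leukocytes, 3 of 4 for endothelium and 1 of 5 for fibroblasts passed the TruSeq filter. Of these 0 were called, where 6.27% of all genes were. In PLATE-seq 2 of 5 fibroblast markers were tested, with 0 for leukocytes and 0 for endothelium. The fibroblast markers had median log2 fold changes of 3.59 in clone 1, -0.105 in clone 2 and 1.69 in clone 3. The median was -1.54 under siRNA and 4.54 in the siRNA control against the control, and neither marker was called in any comparison. A call compares the groups and does not show which cells were present. KRT7, a keratin of the line, rose in the TruSeq knockout (log2 fold change 1.53, edgeR adjusted p = 0.00267). In TruSeq, knockout replicate 1 and control replicates 1 and 2 had counts in 36042 to 39068 features, and the other 3 libraries in 28621 to 30653. This split crosses the groups, and its part in the results was not tested beyond the fits given below. SMARCAL1 messenger RNA was 13.3, 14.7 and 14.0 CPM in TruSeq knockout libraries, against 13.9, 14.0 and 16.1 CPM in control libraries, and these ranges overlapped. In PLATE-seq SMARCAL1 had 0 counts in both siRNA SMARCAL1 libraries, against 7 and 8 counts in the siRNA control libraries. The 3 PLATE-seq clones had 3 to 44 SMARCAL1 counts a library, against 0 and 3 in the control, so the message level does not check the knockout label.

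In the TruSeq comparison 6 of the 51 members tested changed in knockout clone 1. SAMD9, OAS3, PARP14 and PSME1 rose, and BST2 and PNPT1 fell. The change was largest for BST2 (mean 5.53 ± 0.77 CPM in knockout and 20.2 ± 1.1 CPM in control libraries, SD, n = 3 each) and SAMD9 (27.4 ± 4.49 and 10.7 ± 1.15 CPM). The test was the edgeR quasi-likelihood test with Benjamini-Hochberg adjustment over 17371 genes and a threshold of 0.05. The 4 higher members were 7.84% of those tested, where 3.96% of all genes were called higher. The 2 lower members were 3.92%, where 2.31% of all genes were called lower. At an unadjusted p below 0.05 there were 19 members (37.3%), where 20.4% of all genes reached it. The groups did not overlap for 18 members (35.3%), 14 of them higher in the knockout, where 26.3% of all genes did not overlap.

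BST2 (tetherin), which ties budding enveloped virus particles to the cell surface, is on GRCh38 chromosome 19 from 17402939 to 17405648 on the minus strand. BST2 had 5.19, 4.99 and 6.42 CPM in knockout libraries, against 19, 20.6 and 21.1 CPM in control libraries. Every knockout library was far below every control library, and the spread within each group was small beside the gap. The log2 fold change of BST2 was -1.87 (SE 0.13, edgeR adjusted p = 0.000177). In such bulk samples fewer expressing cells and less RNA in each cell cannot be told apart.

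**Figure D1:**
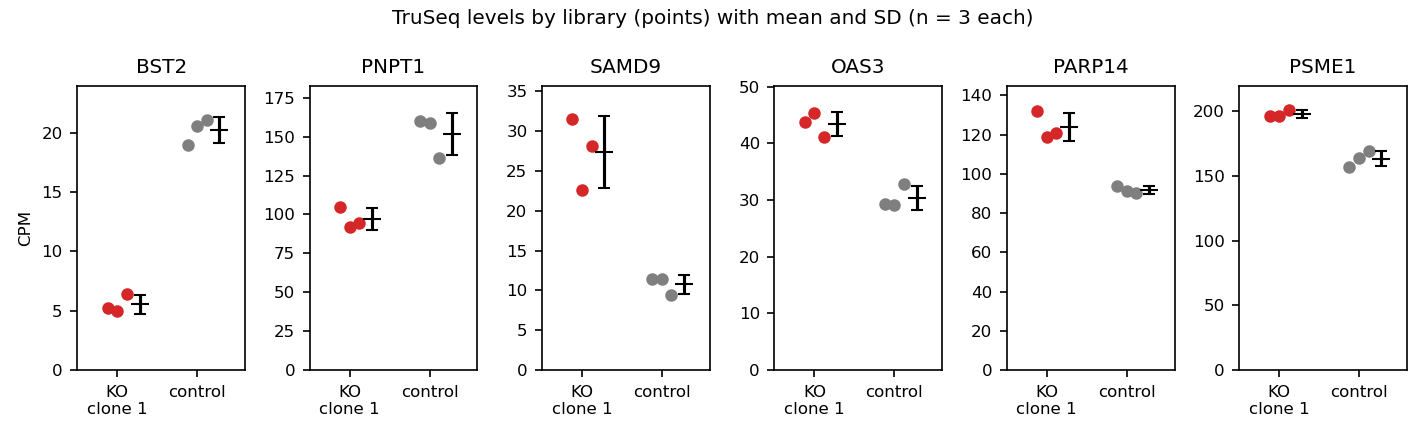
TruSeq levels (CPM) of the 6 changed members in each library, knockout clone 1 on the left and control on the right of each panel, with the mean and SD (n = 3 each). BST2 and PNPT1 lie lower and SAMD9, OAS3, PARP14 and PSME1 higher in all 3 knockout libraries than in any control library.

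The RNA sensing and decay effectors held 3 of the other 5 changed members. SAMD9, a restriction factor that blocks poxvirus protein synthesis, lies on chromosome 7 from 93099513 to 93118023 on the minus strand. SAMD9 had 31.5, 22.6 and 28.1 CPM in knockout libraries, against 11.4, 11.4 and 9.41 CPM in control libraries. Its lowest knockout library stood well above its highest control library. The log2 fold change of SAMD9 was 1.36 (SE 0.15, edgeR adjusted p = 0.00168). OAS3, a sensor of double-stranded RNA that makes the signal for RNase L, lies on chromosome 12 from 112938352 to 112973249 on the plus strand. OAS3 had 43.8, 45.3 and 41.1 CPM in knockout libraries, against 29.2, 29.1 and 32.8 CPM in control libraries. The groups were apart, with a log2 fold change of 0.51 (SE 0.08, edgeR adjusted p = 0.0109). OAS3 was no longer called without control replicate 1 (adjusted p = 0.0516), control replicate 2 (0.0909) or knockout replicate 2 (0.0612).

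PNPT1, the mitochondrial polynucleotide phosphorylase, moved the other way from SAMD9 and OAS3. It degrades RNA in mitochondria and lies on chromosome 2 from 55634265 to 55693910 on the minus strand. PNPT1 had 105, 91.9 and 94.3 CPM in knockout libraries, against 160, 159 and 136 CPM in control libraries. The groups did not overlap, and the log2 fold change was -0.64 (SE 0.09, edgeR adjusted p = 0.00517). Among all 15 RNA effectors tested 12 had a positive log2 fold change, with a median of 0.27, where 49.3% of all genes were positive.

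DDX60, a helicase that aids RNA sensing, missed the threshold. DDX60 had 43.9, 38.4 and 44.0 CPM in knockout libraries, against 34.2, 32.6 and 33.1 CPM in control libraries, with a log2 fold change of 0.34 (edgeR adjusted p = 0.0513). The groups did not overlap. IFIT1, which binds foreign RNA that lacks the host cap mark, had 29.8, 23.4 and 31.8 CPM in knockout libraries, against 23.7, 21.6 and 23.6 CPM in control libraries, and these ranges overlapped. IFIT3, its partner, had log2 fold change 0.29 (edgeR adjusted p = 0.124). SAMD9L, the neighbour and relative of SAMD9, was near the floor, with 0.927, 0.232 and 0.397 CPM in knockout libraries and 1.02, 0.726 and 0.495 CPM in control libraries. These SAMD9L ranges overlapped (log2 fold change -0.57, edgeR adjusted p = 0.666). EIF2AK2, the kinase PKR, and ADAR, which edits double-stranded RNA, were among the 5 members with most counts. ADAR had 347, 432 and 407 CPM in knockout libraries, against 310, 316 and 356 CPM in control libraries, and the ranges overlapped (log2 fold change 0.27, edgeR adjusted p = 0.145). EIF2AK2 had 171, 150 and 156 CPM in knockout libraries, against 154, 134 and 133 CPM in control libraries, again with overlap (0.18, adjusted p = 0.276).

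The ADP-ribosyltransferase group had 1 changed member of 5. PARP14, an ADP-ribosyltransferase known to act with STAT proteins, lies on chromosome 3 from 122680618 to 122730840 on the plus strand. PARP14 had 132, 119 and 121 CPM in knockout libraries, against 93.8, 91.3 and 90.2 CPM in control libraries. All 3 knockout libraries were above all 3 control libraries, with a log2 fold change of 0.43 (SE 0.07, edgeR adjusted p = 0.00888). Without control replicate 2 the adjusted p of PARP14 was 0.0714. All 5 members of the group had positive log2 fold changes, from 0.04 for PARP12 to 0.43 for PARP14, though PARP12 turned negative with the feature side as a term and within the few-feature side. PARP9 and its partner DTX3L share 217 exonic bases on opposite strands, and their reads could not be assigned with certainty since the strand setting of the counting is not given in the sources used here.

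The proteasome activator subunits PSME1 and PSME2 form the cap that promotes peptide production for antigen presentation. PSME1 had 196, 196 and 201 CPM in knockout libraries, against 157, 164 and 169 CPM in control libraries. The ranges were apart by a small step, with a log2 fold change of 0.28 (SE 0.06, edgeR adjusted p = 0.0331). PSME1, on chromosome 14 from 24136158 to 24138967, lost its call when any library except control replicate 3 was left out (edgeR adjusted p 0.0511 to 0.185). PSME2 had 159, 164 and 182 CPM in knockout libraries, against 130, 151 and 158 CPM in control libraries, with no overlap but without a call (0.20, edgeR adjusted p = 0.26).

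The other groups gave no changed member apart from BST2. ISG15, the ubiquitin-like protein that is joined to other proteins in the interferon response, had 58.0, 77.6 and 81.4 CPM in knockout libraries, against 45.6, 54.3 and 77.1 CPM in control libraries. These ranges overlapped (log2 fold change 0.29, edgeR adjusted p = 0.452). The 4 tested members listed under the ISG15 system were ISG15, its ligase HERC5, its protease USP18 and HERC6. All 4 had positive log2 fold changes, from 0.24 to 0.42, and none was called. All 5 tested TRIM and nuclear body members were also positive, from 0.03 for TRIM25 to 0.32 for SP100, with none called, and TRIM14, TRIM21 and TRIM25 turned negative in at least 1 of the fits by feature side. The 9 tested members listed as membrane, entry and release factors, among which CMPK2, a mitochondrial nucleotide kinase, and the secreted LGALS3BP were also placed, ran from -1.87 for BST2 to 0.29 for CMPK2, with a median of 0.02. Of the large GTPases, 4 were tested and lay between -0.24 for GBP3 and 0.08 for MX1. Among the transcription factors STAT2 had a log2 fold change of -0.25 (edgeR adjusted p = 0.173) and IRF9 0.28 (adjusted p = 0.205), so these ISGF3 subunits had values of opposite sign and neither was called. IFI44L, of unclear function, had 6.30, 2.38 and 3.31 CPM in knockout libraries, against 3.5, 3.39 and 1.71 CPM in control libraries, with wide overlap (0.47, edgeR adjusted p = 0.578).

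**Figure D2:**
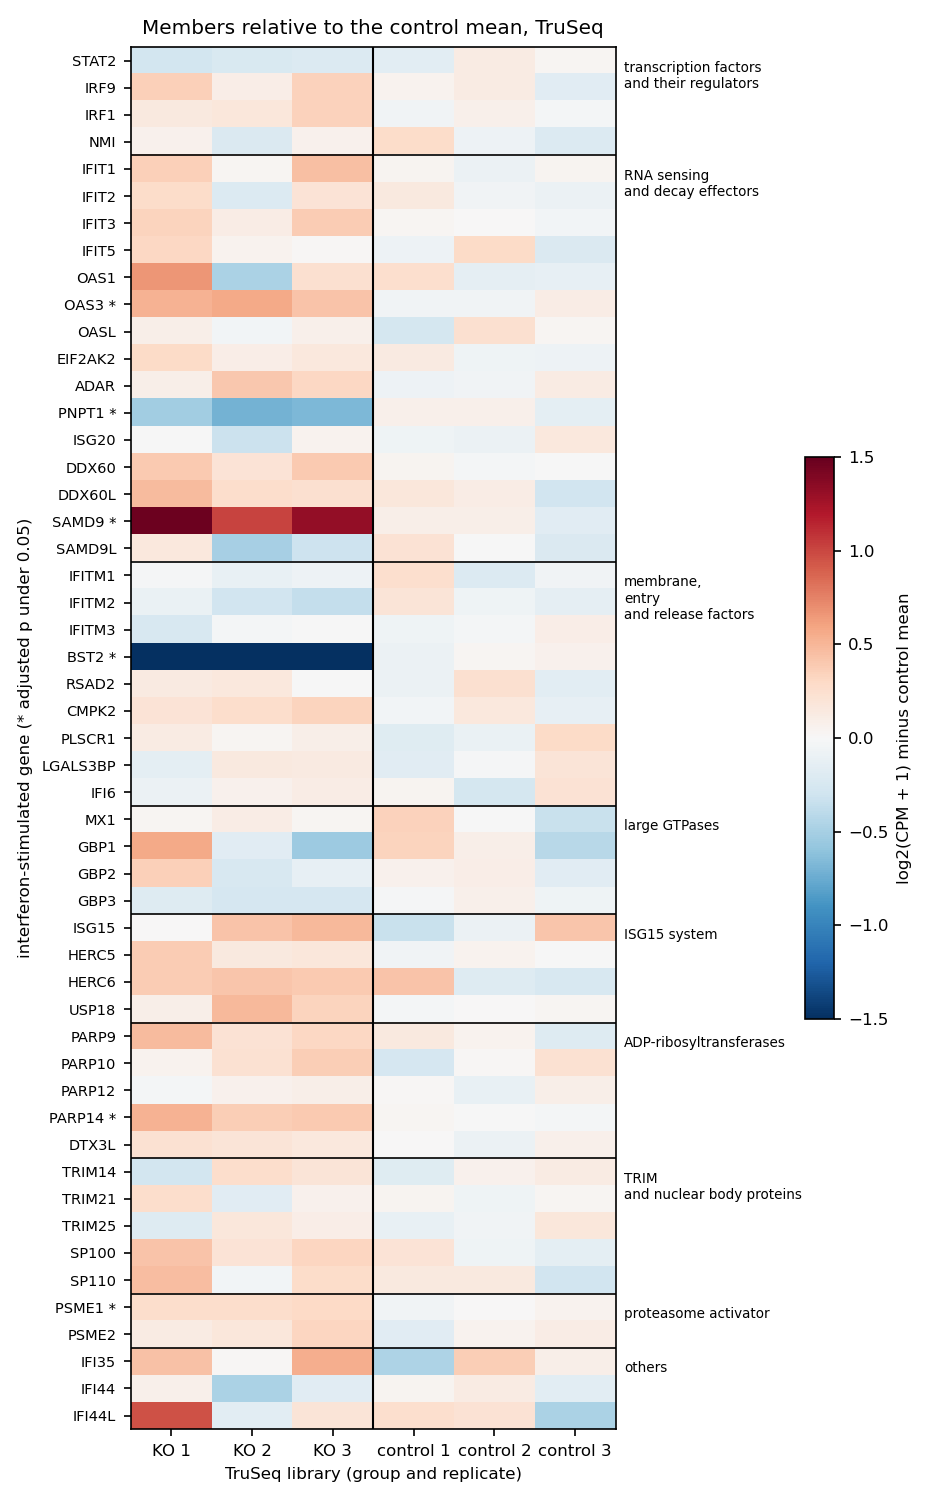
Each of the 51 tested members (rows, grouped by role) in each TruSeq library (columns, knockout clone 1 left of control), as log2(CPM + 1) minus the control mean, with the colour scale ending at 1.5 either way. Rows marked * passed the threshold, and BST2 and SAMD9 stand out from the pale rows around them.

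Over the 51 members the median log2 fold change was 0.18, against -0.004 over all 17371 genes, and 39 members (76.5%) were positive, where 49.3% of all genes were. Scaled by exon length, so that genes can be compared, the highest level in control libraries was that of IFITM3, a membrane protein that hinders virus entry, at 95 CPM per kilobase, with 89.0 in knockout libraries. PSME1 (111 in knockout, 91.5 in control), LGALS3BP (69.5 and 67.2) and ISG15 (76.8 and 62.7) followed on the same scale. BST2 was at 4.94 CPM per kilobase in knockout and 18.1 in control libraries, and SAMD9 at 4.0 and 1.56. The 8 members that were not tested in TruSeq were OAS2, IFI27, MX2, UBA7, TRIM22, XAF1, RTP4 and EPSTI1.

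The split in the number of features touched these counts. With the side of the split as a term, edgeR called 18 members higher (35.3%), where 11.4% of all genes were called higher, and 5 lower (9.80%), where 10.4% were. The members called then included IRF9 (log2 fold change 0.35), HERC5 (0.26), SP100 (0.39), PARP9 (0.43) and IFI44L (0.81) among the higher, and STAT2 (-0.26), GBP3 (-0.21) and IFITM3 (-0.15) among the lower. Within the few-feature side, with 2 knockout libraries and 1 control library, 11 members were higher (22%), where 7.42% of all genes were, and 2 lower (4%), where 6.36% were. Within the many-feature side, with 1 knockout library and 2 control libraries, 3 members were higher (5.56%) where 3.57% of all genes were, and 2 lower (3.70%) where 2.82% were. In these last fits the lone library of a group is assumed to vary like the others, so their counts called are description only. BST2, SAMD9 and PNPT1 were called with each library left out in turn and under each other scaling, filter, tool and term tried. Their log2 fold changes within the many-feature side were -1.94, 1.46 and -0.61, and within the few-feature side -1.90, 1.42 and -0.55.

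**Figure D3:**
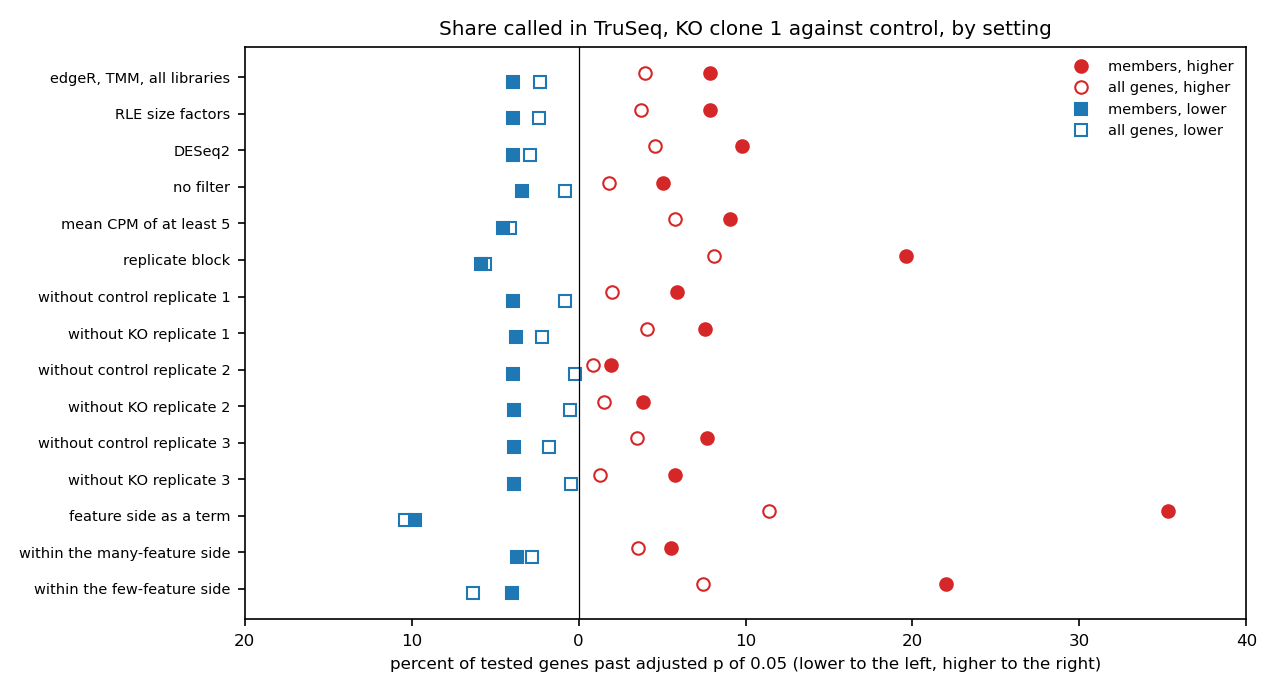
Percent of tested members (filled) and of all tested genes (open) past an adjusted p of 0.05 in TruSeq, knockout clone 1 against control, for each setting. Higher genes run to the right and lower genes to the left, and the share of members called higher spans 1.96% without control replicate 2 to 35.3% with the feature side as a term.

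In PLATE-seq no member was called in any of the 3 clones, and none under siRNA. With 28 members tested in 1 edgeR fit of all 12 libraries, 0 passed the adjusted threshold in clone 1, where 0% of all 8595 genes passed, in clone 2, where 0.0349% passed, in clone 3, where 0.663% passed, and under siRNA, where 0% passed. At an unadjusted p below 0.05 there were 3 members in clone 1 (10.7%, where 8.19% of all genes reached it), 1 in clone 2 (3.57%, where 9.66% did), 2 in clone 3 (7.14%, where 11.9% did) and 1 under siRNA (3.57%, where 6.33% did). Member groups did not overlap for 10 members (35.7%) in each clone, where 39.2%, 38.3% and 42% of all genes did not in clones 1, 2 and 3, and for 11 members (39.3%) under siRNA, where 37.4% did not. DESeq2 also called 0 members in each of these comparisons. The clones share the 2 control libraries, so agreement among them is not independent.

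The members' median log2 fold changes were 0.29 in clone 1, -0.02 in clone 2, 0.28 in clone 3 and 0.05 under siRNA. The medians of all genes were 0.007, 0.008, 0.02 and -0.015. Between the siRNA control and the untransfected control, neither of them depleted of SMARCAL1, the members' median was 0.23, against 0.006 for all genes, and 0 members were called, where 0.0116% of all genes were. No member reached an unadjusted p below 0.05 there, where 7.78% of all genes did, and 8 members (28.6%) did not overlap, where 36.6% of all genes did not. With the siRNA control as their comparator, the clones had member medians of 0.10, -0.07 and -0.12, so the sign in clone 3 turned with the choice of control.

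**Figure D4:**
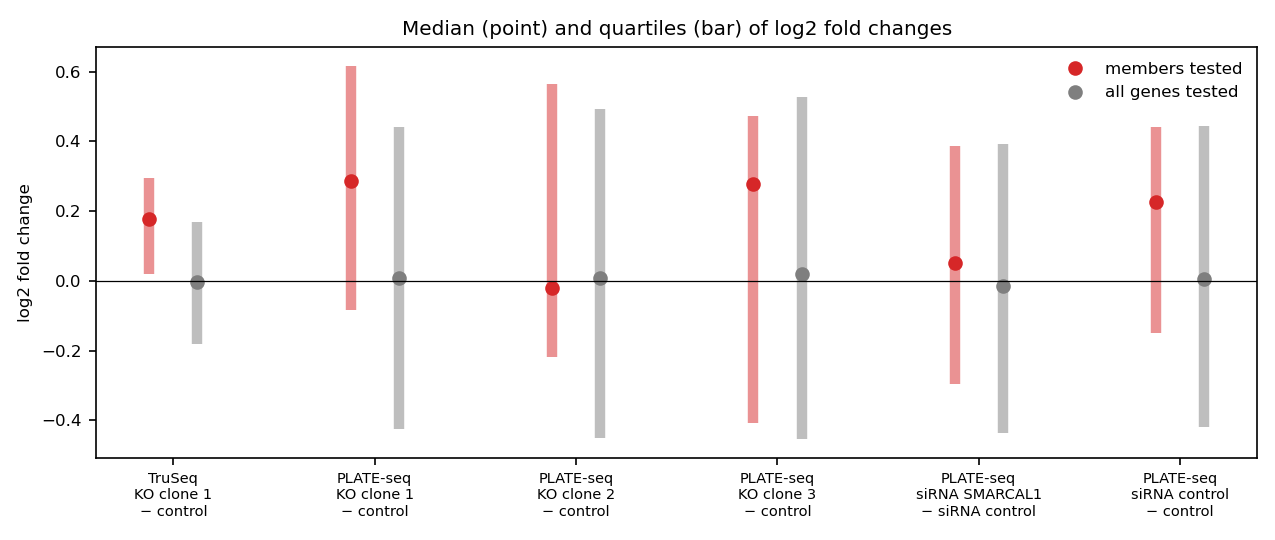
Median (point) and quartiles (bar) of log2 fold changes for the tested members and for all tested genes in 6 comparisons. The members' medians reach 0.29 in clone 1 by PLATE-seq, and 0.23 between the siRNA control and the control.

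OAS3 had the smallest unadjusted p of the members in clones 1 and 2. OAS3 had 201 and 198 CPM in clone 1, 265 and 212 CPM in clone 2 and 164 and 120 CPM in clone 3, against 106 and 124 CPM in control libraries. Clones 1 and 2 were above the control in both libraries, and clone 3 overlapped it. The log2 fold changes of OAS3 were 0.79 in clone 1 (SE 0.28, edgeR adjusted p = 0.457), 1.05 in clone 2 (SE 0.29, adjusted p = 0.161) and 0.30 in clone 3 (SE 0.28, adjusted p = 0.723). OAS3 had 186 and 159 CPM in siRNA SMARCAL1 libraries, against 180 and 152 CPM in siRNA control libraries, with overlap. The siRNA control was also above the control, by a log2 fold change of 0.52 (SE 0.29, edgeR adjusted p = 0.7).

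PSME1 had 111 and 111 CPM in clone 1, 102 and 92.2 CPM in clone 2 and 120 and 125 CPM in clone 3, against 75.2 and 60.8 CPM in control libraries. Every clone library was above both control libraries. The log2 fold changes were 0.70, 0.51 and 0.85 (edgeR adjusted p = 0.52, 0.635 and 0.239). PSME1 had 122 and 134 CPM in siRNA SMARCAL1 libraries, against 112 and 82.1 CPM in siRNA control libraries, again without overlap (0.40, adjusted p = 0.901). The siRNA control libraries of PSME1 likewise lay above the control libraries.

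SAMD9 had 12.5 and 14.2 CPM in clone 1, 17.7 and 5.12 CPM in clone 2 and 5.33 and 11.5 CPM in clone 3, against 2.21 and 9.92 CPM in control libraries. Only clone 1 stood clear of the control. Its summed counts of 47 in clone 1 and 10 in control libraries give a ratio of 2.25 after library size (exact 95% interval 1.12 to 4.99, counting error only). The same ratio was 1.99 in clone 2 (0.902 to 4.70), 1.55 in clone 3 (0.777 to 3.43) and 1.29 under siRNA against its own control (0.674 to 2.53), and these intervals include no difference. The edgeR log2 fold change in clone 1 was 1.15 (SE 0.96, adjusted p = 0.82), so with the spread between libraries taken into account SAMD9 was not called. SAMD9 had 2.04 and 20.8 CPM in siRNA SMARCAL1 libraries, against 8.77 and 5.62 CPM in siRNA control libraries, and the siRNA libraries lay on either side of their control.

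BST2 did not pass the PLATE-seq filter. BST2 had 0 and 0 counts in clone 1, 0 and 0 in clone 2 and 8 and 8 in clone 3, against 1 and 0 counts in control libraries. The control itself was at the floor, so a fall like that in TruSeq could not be seen here. The BST2 control mean was 0.555 CPM in PLATE-seq, against 20.2 CPM in TruSeq. The TruSeq level is above the 3.71 CPM that 3 counts stood for at most in PLATE-seq. The reason for this gap between the assays was not tested. BST2 had 10 and 14 counts in siRNA SMARCAL1 libraries, against 3 and 5 in siRNA control libraries, a ratio of 2.91 after library size (exact 95% interval 1.27 to 7.50, counting error only). The siRNA libraries thus had more counts than their control, where TruSeq clone 1 was lower than its own. The same ratio was 4.96 in PLATE-seq clone 3 against the control (0.77 to 208), an interval that includes no difference. The spread between PLATE-seq libraries was not tested for BST2, and these differences were not tested against each other.

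IFITM2, an entry factor, had 22.0 and 11.5 CPM in clone 1, 33.3 and 23.6 CPM in clone 2 and 72.9 and 34.6 CPM in clone 3, against 38.7 and 42.2 CPM in control libraries. Clones 1 and 2 were below the control and clone 3 lay on either side of it. The log2 fold change in clone 1 was -1.27 (SE 0.47, edgeR adjusted p = 0.475). IFITM2 shares 351 exonic bases with IFITM1 on the same strand, and IFITM1 had 0 counts in every PLATE-seq library. IFI44, of unclear function, had 6.67 and 22.5 CPM in clone 3, against 3.32 and 3.72 CPM in control libraries (2.04, SE 0.97, edgeR adjusted p = 0.408). IFI44 was at 1.78 and 10.9 CPM in clone 1 and 1.04 and 2.05 CPM in clone 2. The clone 2 values lay below the 3.26 and 3.12 CPM that 3 counts stood for there. IFI44 was not called as differing among the clones.

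ISG15 had 42.2 and 36.0 CPM in clone 1, 26.0 and 41 CPM in clone 2 and 33.8 and 33.4 CPM in clone 3, against 37.6 and 23.6 CPM in control libraries. All of these ranges overlapped. ISG15 had 27.2 and 13.8 CPM in siRNA SMARCAL1 libraries, against 35.9 and 37.9 CPM in siRNA control libraries, with the siRNA libraries lower in both (log2 fold change -0.82, SE 0.45, edgeR adjusted p = 0.824). LGALS3BP, a secreted glycoprotein, had 55.1 and 35.6 CPM in siRNA SMARCAL1 libraries, against 50.8 and 125 CPM in siRNA control libraries. They overlapped, and the log2 fold change was -0.95 (SE 0.38, edgeR adjusted p = 0.684).

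**Figure D5:**
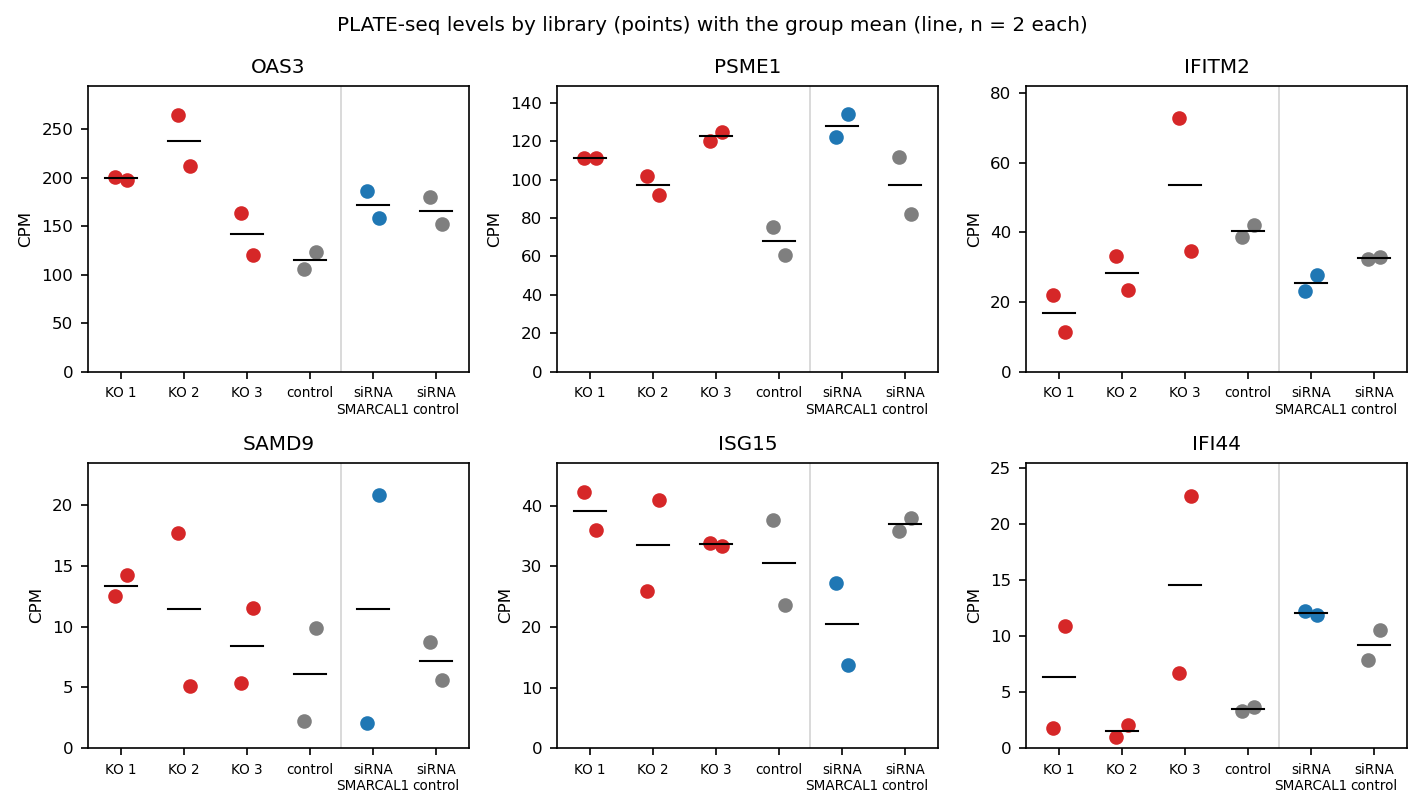
PLATE-seq levels (CPM) of 6 members in each library, with the mean as a line (n = 2 each), knockout clones left of the control and siRNA SMARCAL1 left of the siRNA control. OAS3 and PSME1 have their lowest mean in the control, and SAMD9 in siRNA SMARCAL1 libraries spans 2.04 to 20.8 CPM.

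The remaining members at the ends of the PLATE-seq comparisons had few counts. IFIT1 had 2.38 and 2.73 CPM in clone 1, 3.12 and 1.02 CPM in clone 2 and 2.67 and 2.13 CPM in clone 3, against 0 and 11.2 CPM in control libraries. Its values in the clones fell between its control libraries. IFIT1 had 13.6 and 8.90 CPM in siRNA SMARCAL1 libraries, against 2.63 and 4.91 CPM in siRNA control libraries, with no overlap (log2 fold change 1.55, SE 1.25, edgeR adjusted p = 0.912). PLSCR1, a membrane scramblase, had 3.57 and 2.18 CPM in clone 1, against 0 and 1.24 CPM in control libraries, which are at most 1 count a library. GBP3, IRF1, DTX3L, SP100, OASL, PARP9 and IFI35 were the others at either end, with edgeR adjusted p from 0.61 up and no call. IFITM3 had the highest level of a member in PLATE-seq, from 817 to 2060 CPM, with 1770 and 1180 CPM in the control. PSME2, OAS3, PSME1 and TRIM25 came next by counts.

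Among the 3 clones, compared without the control, 0 members differed at the adjusted threshold, where 0.71% of all genes did. At an unadjusted p below 0.05 there were 6 members (21.4%), where 11.3% of all genes reached it: IFITM2, EIF2AK2, IFI44, SP100, IFITM3 and OAS3. The mean effect of the clones minus the effect of siRNA was tested in the same fit, and 0 members passed, where 0% of all genes passed, with 0 members and 7.76% of all genes at an unadjusted p below 0.05. In that test OAS3 had a difference of 0.65 (SE 0.37, edgeR adjusted p = 0.699) and ISG15 one of 1.02 (SE 0.59, adjusted p = 0.706). STAT2, tested in TruSeq only, had 1 to 5 counts in each library of the 3 clones and 0 counts in the control and both siRNA groups. Its clone values, 0.444 to 3.12 CPM, lay below the 3.37 and 3.71 CPM that 0 counts allow in the control libraries. These STAT2 counts therefore do not tell the clones from the control. The members with 0 counts in every PLATE-seq library were EPSTI1, IFITM1, OAS2, RTP4, SAMD9L, TRIM22, UBA7 and XAF1.

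Of 31 genes of interferon signalling, 22 were tested in TruSeq, with 0 higher and 1 lower, where 3.96% of all genes were higher and 2.31% lower. Their median log2 fold change was -0.003, against -0.004 over all genes. IFNGR1, a subunit of the receptor for interferon gamma, had 38.3, 38.0 and 31.9 CPM in knockout libraries, against 48.0, 46.2 and 47.7 CPM in control libraries. It fell without overlap (log2 fold change -0.39, SE 0.09, edgeR adjusted p = 0.0378). IFNAR1, of the type I receptor, had 73.3, 76.9 and 78.3 CPM in knockout libraries, against 100, 89.1 and 87.9 CPM in control libraries and was not called (-0.28, edgeR adjusted p = 0.0695). The interferon genes themselves were scarcely counted: IFNB1 had 0.0927, 0.058 and 0.0662 CPM in knockout libraries, against 0.171, 0.161 and 0.11 CPM in control libraries, all below the limit of 3 counts. Of 30 other interferon-regulated genes, 26 were tested, with 1 higher and 0 lower and a median log2 fold change of 0.12, beside the same shares and median of all genes. ZC3HAV1, an antiviral protein that binds CpG-rich RNA, had 169, 178 and 172 CPM in knockout libraries, against 145, 136 and 150 CPM in control libraries, and rose without overlap (0.27, SE 0.06, edgeR adjusted p = 0.0462). IFNGR1 and ZC3HAV1 were close to the threshold, and neither was examined under the other settings or with a library left out. The RNA sensor IFIH1 (0.38, edgeR adjusted p = 0.0757) and B2M, the light chain of MHC class I (0.35, adjusted p = 0.0639), were not called. In PLATE-seq 15 genes of each list were tested, and none was called in the clones or under siRNA.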

How the data were processed

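The files deposited hold raw counts by gene symbol. The authors used STAR and HTSeq on hg38, per the submitters' processing notes. Versions, annotation and strand setting are not given in the sources used here. There were 6 TruSeq and 12 PLATE-seq libraries in 8 groups, taken from the sample titles and genotype labels, with totals as given above. The 92 spike-in entries were left out.

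TruSeq and PLATE-seq counts were fitted separately in edgeR 4.0.16 (R 4.3.3): filterByExpr, TMM scaling, group as the only term, quasi-likelihood F test, two-sided, Benjamini-Hochberg over all genes tested, threshold 0.05. The TruSeq fit had 17371 genes and 4 residual degrees of freedom, the PLATE-seq fit 8595 and 6. The biological coefficient of variation was 0.123 and 0.33. An SE is the absolute log2 fold change over the root of F. The code was tested on simulated data. CPM use TMM library sizes, and floors are 3 counts. Coordinates are from GENCODE 29 by symbol.

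Members and lists were chosen with earlier results of these data known. Named members were those called, the 3 at either end of each comparison, the 5 with most counts, those with 0 counts, BST2, SAMD9 and ISG15. DDX60, PSME2, STAT2, IRF9 and others beyond this rule were named after their values were seen. Alternatives were DESeq2 1.42.0, RLE scaling, 2 other filters, the replicate block, each library left out, the feature split, only the groups compared, and the siRNA control as comparator. No set test was run.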

Additional observations from a re-analysis of the deposited data

How the results depend on the processing

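The TruSeq count of 4 members higher was 10 with the replicate block (19.6%, where 8.13% of all genes were higher), 18 with the feature side as a term (all genes 11.4%), 11 within the few-feature side (all genes 7.42%) and 1 to 4 with 1 library left out (all genes 0.872% to 4.09%), lowest without control replicate 2 (1) and without knockout replicate 2 (2). The count of 2 lower was 5 with the feature side as a term, 3 with the replicate block (5.88%, where 5.61% of all genes were lower, GBP3 at edgeR adjusted p = 0.049), and 2 with any library left out. The cause was not tested. Same-numbered TruSeq libraries deviated with correlations of 0.596, -0.25 and 0.447, and differently numbered ones with correlations between -0.698 and 0.579. Same-numbered PLATE-seq libraries had correlations between -0.0552 and 0.0536. With so few libraries a group, these values cannot decide whether the numbers pair the TruSeq samples. With the block ISG15 was called in TruSeq (log2 fold change 0.31, edgeR adjusted p = 0.0358). With the feature side as a term ISG15 was not called (0.12, edgeR adjusted p = 0.25). Its log2 fold change was 0.21 within the many-feature side and 0.04 within the few-feature side. No member was called in PLATE-seq under any alternative, and 31 of 59 members were untested there in the main fit. Some of these were well counted in TruSeq, such as PARP10, with a control mean of 59.5 CPM in TruSeq and 1.18 CPM in PLATE-seq. Why such members were low in PLATE-seq was not tested.

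Signs turned for members that were not called. In TruSeq the sign turned for 8 of 51 members with the feature side as a term (LGALS3BP at -0.047), 10 of 50 within the few-feature side (PLSCR1 at -0.24), 7 of 51 within the many-feature side (SAMD9L at 0.078, MX1 at -0.23) and 1 with the replicate block, and 0 of these were called. With the siRNA control as comparator, PLSCR1 was at -1.21 and IFI44 at -0.52 in clone 1, PLSCR1 at -1.35 and ISG15 at -0.14 in clone 2, and ISG15 at -0.14 in clone 3. With 1 PLATE-seq library left out, log2 fold changes ran as follows in clone 1: IFIT1 -2.08 to 5.02, GBP3 -1.48 to 0.031 and IFI44 -0.94 to 1.62. In clone 2 they ran for IFIT1 -2.39 to 4.71, SAMD9 -0.21 to 2.32 and ISG15 -0.25 to 0.51. In clone 3 they ran for IFIT1 -2.18 to 4.93, SP100 -0.87 to 0.19, OASL -1.03 to 6.35, SAMD9 -0.20 to 1.92 and ISG15 -0.15 to 0.52. Under siRNA they ran for DTX3L -3.33 to 0.72, IFI35 -0.34 to 2.20 and SAMD9 -1.76 to 1.53.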
